A study of Mus musculus with 12 samples.

Results

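The genes described are 10 genes of amino acid supply that are linked to ATF4: *Atf4* itself, the serine synthesis genes *Phgdh*, *Psat1* and *Psph*, the mitochondrial serine and folate genes *Shmt2* and *Mthfd2*, the asparagine synthetase gene *Asns*, the proline synthesis genes *Aldh18a1* and *Pycr1*, and the cystine transporter gene *Slc7a11*. They were listed by name, with earlier results of these data known, and all 10 had a row among the 54352 gene symbols of the count table. Every cell came from wild-type (WT) C57Bl/6 mice of 14 weeks, as the labels give the age, and no group carried a transgene or deletion. Fibroblasts were grown out of minced adventitia, the outer layer of the vessel wall, from the ascending (aortic root and ascending aorta) and from the descending thoracic aorta, and were passaged before treatment. They then received solute (control, 0 ng/mL TGFβ) or mouse TGFβ at 10 ng/mL for 48 h. RNA from 12 cultures was sequenced in bulk, 3 cultures for each of the 4 groups: descending control, descending TGFβ, ascending control and ascending TGFβ. The age stated in the study's methods differs from that in the labels. Whether cultures of the same number share an animal is not stated, so the p-values measure the spread between these cultures, which may be technical.

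Serine is made from a glycolytic intermediate by the enzymes of *Phgdh*, *Psat1* and *Psph*, is split into glycine and a folate-bound one-carbon unit by SHMT2, and that unit is passed on by MTHFD2 in mitochondria. Proline is made from glutamate by the enzymes of *Aldh18a1* and *Pycr1*. ATF4 is the transcription factor of the integrated stress response and of amino acid shortage, it is regulated largely at translation, and genes of all these pathways are among its known targets. Collagen is rich in glycine and proline, and TGFβ is the classical inducer of collagen in fibroblasts.

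The element that ATF4 binds together with a C/EBP protein is commonly written with the letters TGATGNAA. These letters were looked for on both strands of the RefSeq promoter windows of build GRCm38.p6, which reach from 250 bases before to 50 bases after a gene's start. All 10 genes had a window (11 windows, since *Psat1* has 2 starts), and the letters occurred in those of 3 genes: *Slc7a11*, *Asns* and *Pycr1*. Of all 32851 windows, 3.97% held them. The sequences of those 3 are shown since they are the ones that carry the letters, which are in capitals. All lie on the minus strand and are written 5′ to 3′ from 150 bases before the start, to the last base before it for *Slc7a11* (chr3:50443614-50443763) and *Pycr1* (chr11:120643749-120643898), and to 16 bases before it for *Asns* (chr6:7693225-7693359).
Slc7a11: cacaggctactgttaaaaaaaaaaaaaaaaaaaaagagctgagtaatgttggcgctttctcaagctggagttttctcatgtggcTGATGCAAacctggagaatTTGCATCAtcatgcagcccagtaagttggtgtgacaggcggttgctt
Asns: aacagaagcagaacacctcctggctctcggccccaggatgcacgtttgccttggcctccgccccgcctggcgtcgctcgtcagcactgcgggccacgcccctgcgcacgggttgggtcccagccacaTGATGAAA
Pycr1: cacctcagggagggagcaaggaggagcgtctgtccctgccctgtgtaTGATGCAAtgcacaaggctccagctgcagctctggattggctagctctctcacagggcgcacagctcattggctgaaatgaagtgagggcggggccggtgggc
In *Slc7a11* the letters stand once on the gene's strand, from 66 bases before the start, and once on the other strand, from 47 bases before it. The match began 23 bases before the start in *Asns*, within the longer gene model of GENCODE, and 103 bases before it in *Pycr1*. These matches describe the letters and are not measured sites of binding, and the windows of *Atf4*, *Phgdh*, *Psat1*, *Psph*, *Shmt2*, *Mthfd2* and *Aldh18a1* held no such letters. The windows of *Psat1* and *Mthfd2* lie inside the longer gene models of GENCODE, so the starts of those models were not searched.

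The libraries held 16250126 to 23892943 reads counted on genes. Counts were scaled to normalized CPM, the count scaled to the size of its library after TMM normalization, which corrects for composition. Descending control replicate 3 stood apart: reads were counted on 13031 genes, against 19337 to 20931 in the other 11 libraries, 11.02% of its reads lay on mitochondrial genes, against 0.703% to 1.03%, and its 100 most abundant genes took 33.2% of its reads, against 24.4% to 29.5%. The differences of the 10 genes that use this library are therefore given with and without it. Markers of cell types are said below to rise or fall at an adjusted p under 0.05. Over all genes tested, 28.2% rose and 27.6% fell with TGFβ in ascending fibroblasts. In descending ones 3.59% rose and 4.48% fell, and 26.6% and 26.3% did so without descending control replicate 3. The fibroblast markers (*Col1a1*, *Col1a2*, *Pdgfra*, *Pdgfrb*, *Dcn*, *Lum*, *Thy1*) summed to 11384 to 11817 normalized CPM in ascending control and 18465 to 18495 in ascending TGFβ libraries, and to 13072 to 13297 and 22333 to 24528 in the descending ones. Their sum was thus higher under TGFβ at both sites. *Col1a1* and *Col1a2* made up most of it, with means of 10849 and 6471 in ascending TGFβ and 13639 and 8519 in descending TGFβ libraries. Of the 7 markers 3 rose and 4 fell in ascending fibroblasts, and 2 rose and 3 fell in descending ones (3 and 4 without descending control replicate 3). The median log2 fold change of the 7 was -0.91 in ascending and -1.03 in descending fibroblasts, and -0.72 in the latter without that library. The 7 smooth muscle markers summed to 158 to 167 in ascending control, 202 to 217 in ascending TGFβ, 211 to 259 in descending control and 355 to 377 in descending TGFβ libraries. In ascending fibroblasts 4 of the 6 tested rose and 2 fell, and in descending ones 2 of 7 rose and 0 fell (5 and 1 without descending control replicate 3). The smooth muscle sum was thus higher under TGFβ at both sites, and higher in descending than in ascending libraries with and without it. Single markers were less uniform in control, where 0 of 6 tested were called between the sites, against 2.65% of all genes tested. Without descending control replicate 3, 2 of 7 were higher and 3 lower in ascending control, where 31.6% of all genes were called. Under TGFβ 0 of 6 were higher and 5 lower in ascending fibroblasts, where 18.1% and 18.2% of all genes were. The 7 endothelial markers summed to 0.870 to 2.40 in ascending control, 3.93 to 6.33 in ascending TGFβ, 0 to 1.95 in descending control and 4.73 to 5.80 in descending TGFβ libraries, higher under TGFβ at both sites and low throughout. Of the 2 tested at each site 1 rose (2 of 3 in descending fibroblasts without descending control replicate 3), with *Tie1* and *Emcn* at or under 3 counts in all libraries. The 8 macrophage markers summed to 59.8 to 379 in ascending control, 32.1 to 46.7 in ascending TGFβ, 30.9 to 53.2 in descending control and 15.7 to 28.6 in descending TGFβ libraries. All 8 fell with TGFβ in ascending fibroblasts, and 0 of 7 in descending ones (5 of 8 without descending control replicate 3). The 5 adipocyte markers summed to 67.3 to 76.7 in descending control and 11.8 to 27.7 in descending TGFβ libraries, and to 1.17 to 10.1 and 0.0473 to 1.15 in the ascending ones. Of the 4 tested in descending fibroblasts 1 fell (3 without descending control replicate 3), as did the 1 tested in ascending ones. The 5 mesothelial markers summed to 33.5 to 44.2 in ascending control, 19.7 to 26.5 in ascending TGFβ, 6.90 to 13.1 in descending control and 12.3 to 13.9 in descending TGFβ libraries. The 5 Schwann cell markers summed to 31.7 to 39.4, 21.0 to 24.7, 14.9 to 24.8 and 11.3 to 12.6 in the same order. Both sums were thus lower with TGFβ in ascending fibroblasts, where 2 of the 4 tested fell in each list. In descending fibroblasts the Schwann cell sum was lower with TGFβ too, and the mesothelial sums overlapped. Of the 2 tested there in each list 0 fell, and 1 Schwann cell marker did without descending control replicate 3. The part of these marker changes and other cells in the results that follow was not tested, and in bulk RNA fewer cells of a type and less RNA per cell cannot be told apart.

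Between genes, levels were compared as normalized CPM per kilobase of exon. In the descending TGFβ libraries the mean level per kilobase was highest for *Atf4* (112 ± 2.89, SD, n = 3) and *Phgdh* (104 ± 2.15, n = 3), followed by *Asns* (66.5 ± 2.00, n = 3). *Aldh18a1*, *Shmt2*, *Psat1* and *Mthfd2* stood between 31.9 and 44.9, *Pycr1* at 12.9 and *Psph* at 10.8. *Slc7a11* was the lowest of the 10, at 1.19 ± 0.0421 (n = 3), and rested on 112 to 338 counts per library, whereas the other 9 genes had at least 192 counts in every library.

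**Figure D1:**
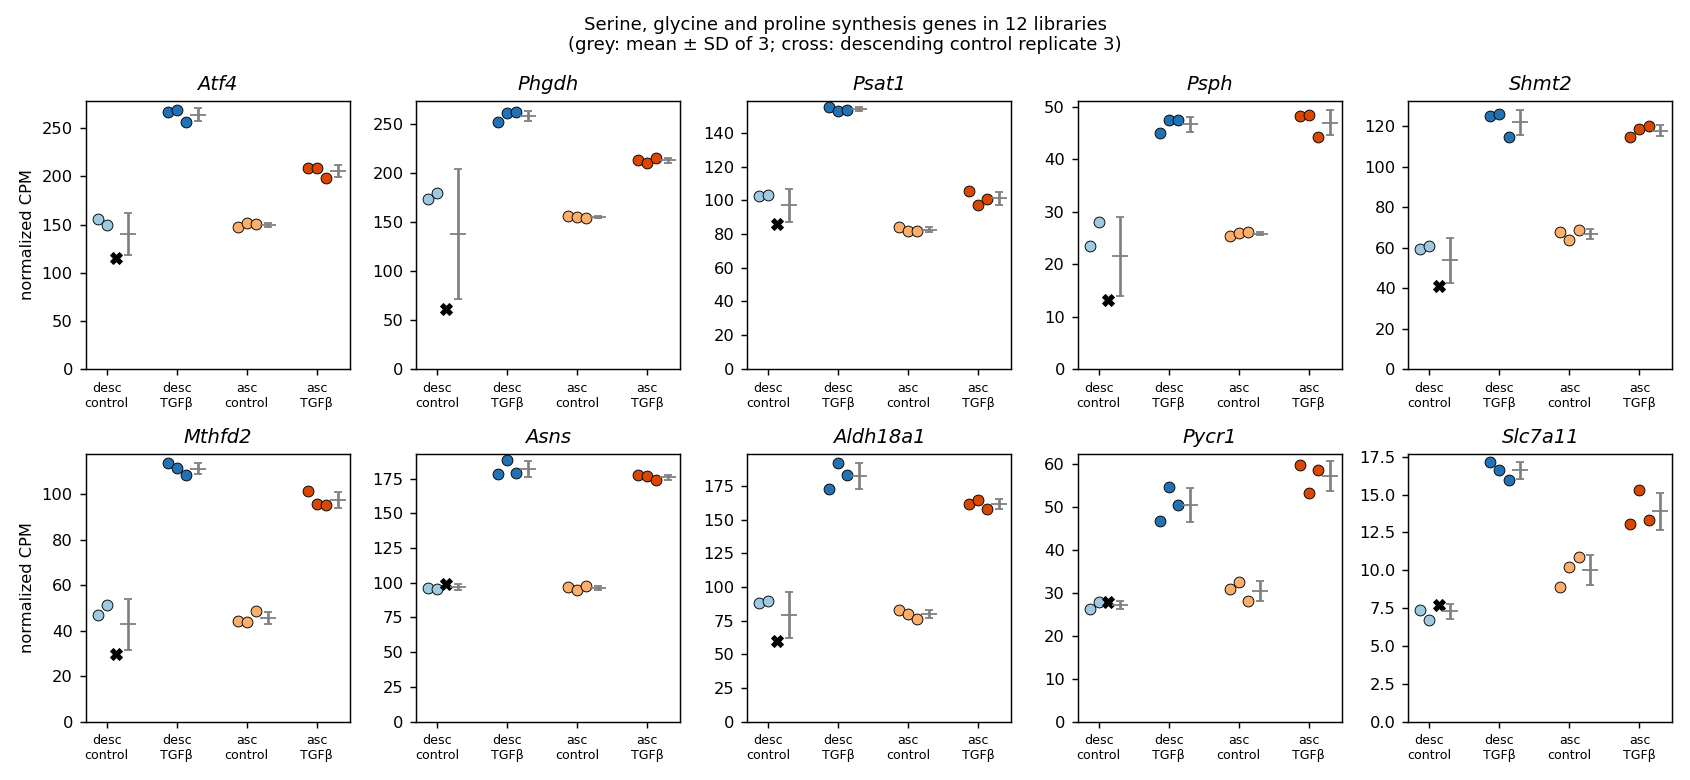
Normalized CPM (vertical axis, from 0, with its own range in each panel) of the 10 genes in the 12 libraries, by group, with the mean ± SD of 3 libraries in grey. Every TGFβ library lies above every control library of its site for each gene, and descending control replicate 3 (cross) is far below the other 2 for *Phgdh* (61.5 against 173 and 180.0).

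The effect of TGFβ within each site was asked first. In ascending fibroblasts all 10 genes rose with TGFβ (adjusted p under 0.05 over the 13917 genes tested, by the quasi-likelihood test of edgeR and Benjamini-Hochberg adjustment), where 28.2% of all genes tested were higher and 27.6% lower. Their median log2 fold change was 0.84, against -0.00 over all genes tested. In descending fibroblasts 8 of the 10 rose, where 3.59% of all genes tested were higher and 4.48% lower, and *Phgdh* and *Psph* did not pass. Without descending control replicate 3 all 10 rose, where 26.6% of all genes tested were higher and 26.3% lower. The median was 1.01 against 0.02 over all genes with that library and 0.92 against -0.01 without it. For each of the 10 genes every TGFβ library lay above every control library of the same site, which held for 31.3% of genes tested in ascending and 24% in descending fibroblasts. The descending count moved with single libraries. Without descending control replicate 1 or replicate 2, 2 of the 10 genes passed, where 1.39% and 1.17% of all genes tested were higher. When any 1 of the 3 descending TGFβ libraries was left out 0 passed, where 0.732% to 0.750% were higher. With the replicate number as a block in the fit 0 passed as well, where 0.311% were higher.

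*Atf4* (chr15:80255184-80257541, GRCm38), the transcription factor, stood at 147, 152 and 150.2 normalized CPM in the ascending control libraries and at 209, 209 and 199 in the ascending TGFβ libraries. In the descending libraries it stood at 156, 149.7 and 115 in control and at 267, 269 and 256 under TGFβ. The control cultures of both sites thus held like amounts apart from the low value of descending control replicate 3, and the descending TGFβ libraries were the highest. The log2 fold change was 0.45 ± 0.04 (SE, adjusted p = 9.8e-09) in ascending fibroblasts. In descending fibroblasts it was 0.90 ± 0.15 (adjusted p = 0.019), and 0.79 ± 0.05 (adjusted p = 6.6e-14) without descending control replicate 3.

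Of the serine synthesis genes, *Phgdh* (chr3:98313170-98339990) encodes phosphoglycerate dehydrogenase, the first enzyme of the pathway. Its values were 157, 155 and 155 normalized CPM in ascending control and 214, 210.1 and 216 in ascending TGFβ libraries. In descending fibroblasts they were 173, 180.0 and 61.5 in control and 253, 261 and 262 under TGFβ. The ascending groups were tight and apart, and the spread in descending control came from the third library. The ascending change of 0.45 ± 0.03 (adjusted p = 3.7e-09) passed. The descending one did not with all libraries (0.90 ± 0.40, adjusted p = 0.24) and did without descending control replicate 3 (0.55 ± 0.05, adjusted p = 1.3e-10). Of the 50-base sequences of its exons, 47.8% also occur in other genes, mostly in *Gm7901*, which held 3 to 37 counts per library where *Phgdh* held 891 to 5545.

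*Psat1* (chr19:15904678-15947337), which encodes the phosphoserine aminotransferase of the next step, stood at 84.4, 82.1 and 81.6 normalized CPM in ascending control and at 105, 97.1 and 101 in ascending TGFβ libraries. Its descending values were 103, 103 and 85.8 in control and 155, 153 and 154 under TGFβ. Ascending cultures under TGFβ thus lay beside the first 2 untreated descending cultures. Its ascending log2 fold change of 0.28 ± 0.04 (adjusted p = 2.6e-05) was the smallest of the 10. The descending one was 0.66 ± 0.12 (adjusted p = 0.028), or 0.59 ± 0.05 (adjusted p = 7.4e-11) without descending control replicate 3.

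*Psph* (chr5:129765558-129787449) encodes phosphoserine phosphatase, which releases serine. Its libraries held 25.5, 25.9 and 26.1 normalized CPM in ascending control and 48.4, 48.4 and 44.2 in ascending TGFβ. The descending libraries held 23.4, 28.0 and 13.2 in control and 45.1, 47.5 and 47.5 under TGFβ. Both sites came to the same range under TGFβ. The log2 fold change was 0.86 ± 0.06 (adjusted p = 8.8e-10) in ascending fibroblasts. In descending fibroblasts it was 1.11 ± 0.28 (adjusted p = 0.069) with all libraries and 0.87 ± 0.08 (adjusted p = 1.3e-10) without descending control replicate 3. Its exons overlap those of *Cct6a* on the opposite strand by 452 bases, and 8.82% of its 50-base sequences are shared with that gene. *Cct6a* held 2104 to 5354 counts per library, and the strand setting of the counting is not given in the sources used here, so part of the *Psph* count could belong to *Cct6a*.

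Among the mitochondrial serine and folate genes, *Shmt2* (chr10:127517123-127522444), whose enzyme turns serine into glycine, had 67.7, 64.0 and 68.9 normalized CPM in ascending control and 115, 119 and 120.4 in ascending TGFβ libraries. In descending fibroblasts the values were 59.3, 60.8 and 40.8 in control and 125, 126 and 115 under TGFβ. The TGFβ libraries of both sites overlapped. The change was 0.81 ± 0.04 (adjusted p = 6.0e-11) in ascending and 1.18 ± 0.18 (adjusted p = 0.017) in descending fibroblasts, and 1.02 ± 0.06 (adjusted p = 3.4e-15) in the latter without descending control replicate 3. Its exons overlap those of *Ndufa4l2* on the opposite strand by 32 bases.

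*Mthfd2* (chr6:83305691-83325908), the mitochondrial methylene-tetrahydrofolate dehydrogenase gene, stood at 44.5, 44.0 and 48.5 normalized CPM in ascending control and at 101, 95.8 and 95.3 in ascending TGFβ libraries. The descending values were 47.0, 51.4 and 29.9 in control and 114, 111 and 109 under TGFβ. It had the largest log2 fold change of the 10 in ascending fibroblasts, 1.09 ± 0.05 (adjusted p = 1.0e-11). The descending change was 1.37 ± 0.22 (adjusted p = 0.017), and 1.18 ± 0.06 (adjusted p = 1.8e-16) without descending control replicate 3.

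*Asns* (chr6:7675169-7693254), the gene of asparagine synthetase, held 96.9, 94.5 and 97.4 normalized CPM in ascending control and 177, 177 and 174 in ascending TGFβ libraries. In the descending groups it held 96.1, 95.5 and 99.2 in control and 178, 188 and 179 under TGFβ. Here descending control replicate 3 was not low but the highest of its group by a small margin, and the control cultures of both sites lay within 94.5 to 99.2. The change was 0.86 ± 0.04 (adjusted p = 2.5e-12) in ascending and 0.90 ± 0.10 (adjusted p = 0.0067) in descending fibroblasts, and 0.93 ± 0.05 (adjusted p = 3.1e-15) without that library.

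Of the proline synthesis genes, *Aldh18a1* (chr19:40550257-40588463) encodes the enzyme that starts the route from glutamate. It had 83.0, 80.3 and 76.5 normalized CPM in ascending control and 162, 165 and 158 in ascending TGFβ libraries. The descending libraries had 87.8, 89.8 and 59.8 in control and 173, 192 and 183 under TGFβ. The groups within each site did not overlap, and the ascending log2 fold change was 1.01 ± 0.04 (adjusted p = 1.8e-12). In descending fibroblasts the change was 1.20 ± 0.18 (adjusted p = 0.016), and 1.04 ± 0.06 (adjusted p = 6.1e-16) without descending control replicate 3.

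*Pycr1* (chr11:120635712-120643769) encodes the mitochondrial pyrroline-5-carboxylate reductase that completes proline. Ascending libraries had 30.9, 32.7 and 28.1 normalized CPM in control and 59.9, 53.4 and 58.7 under TGFβ. Descending libraries had 26.2, 27.9 and 27.9 in control and 46.8, 54.7 and 50.5 under TGFβ, and descending control replicate 3 was again not low. The groups within each site were far apart. The change was 0.90 ± 0.06 (adjusted p = 2.1e-09) in ascending and 0.88 ± 0.12 (adjusted p = 0.012) in descending fibroblasts, and 0.91 ± 0.08 (adjusted p = 2.5e-11) without that library.

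*Slc7a11* (chr3:49892526-50443614), the cystine and glutamate antiporter gene, had 8.91, 10.2 and 10.9 normalized CPM in ascending control and 13.1, 15.3 and 13.4 in ascending TGFβ libraries. In descending fibroblasts it had 7.40, 6.73 and 7.73 in control and 17.2, 16.6 and 15.98 under TGFβ. Untreated cultures were thus lower, and treated ones higher, in the descending than in the ascending site, with no overlap in either. The log2 fold change was 0.47 ± 0.10 (adjusted p = 0.0011) in ascending and 1.18 ± 0.15 (adjusted p = 0.010) in descending fibroblasts, and 1.23 ± 0.12 (adjusted p = 3.4e-10) without descending control replicate 3.

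**Figure D2:**
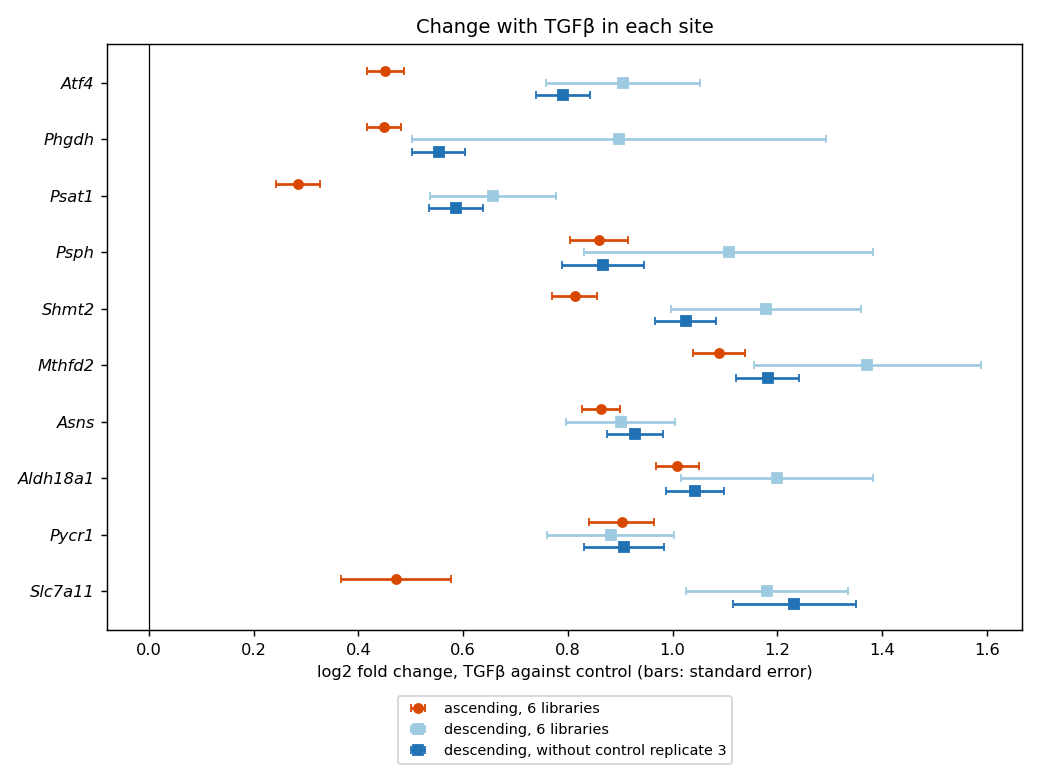
Log2 fold change of each gene with TGFβ against control (horizontal axis; bars are standard errors) in ascending fibroblasts, in descending fibroblasts with all 6 libraries and in descending fibroblasts without control replicate 3. All values lie above 0, from 0.28 for *Psat1* in ascending to 1.37 for *Mthfd2* in descending fibroblasts.

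Whether the sites differed without treatment was compared in the control cultures. None of the 10 genes passed in edgeR's quasi-likelihood test with all 6 libraries (0 of 10, where 2.65% of all genes tested were called in either direction). Of the 10, 1 gene, *Slc7a11*, had an unadjusted p under 0.05 in that test, as had 1805 of all 14090 genes tested. DESeq2 called 0, where it called 6.24% of all genes, and limma with sample quality weights called 4, where it called 31.2%. Without descending control replicate 3, 4 of the 10 passed, where 31.6% of all genes tested were called. *Psat1* (-0.30 ± 0.05, adjusted p = 0.00031) and *Phgdh* (-0.17 ± 0.04, adjusted p = 0.0080) were lower in ascending cultures, and *Slc7a11* (0.51 ± 0.14, adjusted p = 0.011) and *Shmt2* (0.17 ± 0.06, adjusted p = 0.036) were higher. With all libraries the same 4 values were -0.23 ± 0.12, 0.18 ± 0.39, 0.46 ± 0.18 and 0.32 ± 0.18, so *Phgdh* turned its direction with that library. For *Asns* the difference was -0.01 with all libraries (95% interval -0.25 to 0.24) and 0.02 without that one (-0.08 to 0.12). For *Atf4* it was 0.10 (-0.25 to 0.45) and -0.02 (-0.12 to 0.08). The other 4 genes were not called with or without that library. *Psph* went from 0.27 ± 0.28 with it to 0.02 ± 0.08 without it, and *Pycr1* from 0.17 ± 0.12 to 0.19 ± 0.07. *Mthfd2* (0.10 ± 0.22 and -0.09 ± 0.06) and *Aldh18a1* (0.02 ± 0.18 and -0.14 ± 0.05) turned their direction.

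Under TGFβ, the sites were compared with 3 libraries each and without the library that stands apart. Of the 10 genes 7 differed, 6 lower and 1 higher in ascending fibroblasts, where 18.2% of all genes tested were lower, 18.1% higher and 36.3% called in all. *Psat1* differed most, by -0.60 ± 0.04 (adjusted p = 1.2e-12), followed by *Atf4* (-0.36 ± 0.04, adjusted p = 1.2e-08) and *Phgdh* (-0.28 ± 0.04, adjusted p = 6.6e-07). *Mthfd2* (-0.19 ± 0.04, adjusted p = 0.00089) and *Aldh18a1* (-0.17 ± 0.04, adjusted p = 0.0015) differed less. *Slc7a11* was lower by -0.25 ± 0.09 (adjusted p = 0.032), and *Pycr1* alone was higher in ascending fibroblasts (0.18 ± 0.06, adjusted p = 0.015). Both of these calls failed in DESeq2. With all 12 libraries in one fit, which takes in descending control replicate 3, the *Psat1* call alone stayed, where 7.56% of all genes tested were called, and those of *Atf4*, *Phgdh*, *Mthfd2*, *Aldh18a1*, *Slc7a11* and *Pycr1* were lost. The *Pycr1* call was also lost without descending TGFβ replicate 1 or ascending TGFβ replicate 1 or 3, and the *Slc7a11* call without descending TGFβ replicate 1 or 2 or ascending TGFβ replicate 1 or 3. For 7 genes, *Asns* among them, every ascending library lay below every descending library, which held for 23% of all genes tested.

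For the 3 genes that did not pass under TGFβ the difference was 0.01 for *Psph* (95% interval -0.10 to 0.13), -0.05 for *Shmt2* (-0.14 to 0.05) and -0.05 for *Asns* (-0.13 to 0.03). The order of the 4 groups was thus not one order for the set. *Atf4*, *Phgdh*, *Mthfd2* and *Aldh18a1* were highest in descending TGFβ, then in ascending TGFβ, and lower in both controls. For *Psph*, *Shmt2* and *Asns* no difference was called between the sites under TGFβ, though *Asns* was lower in each ascending than in each descending TGFβ library, and *Shmt2* was higher in ascending than in descending control without descending control replicate 3. *Psat1* had its treated ascending cultures beside the first 2 untreated descending ones, and *Pycr1* was highest in ascending TGFβ. *Slc7a11* ran from descending TGFβ over ascending TGFβ and ascending control down to descending control.

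**Figure D3:**
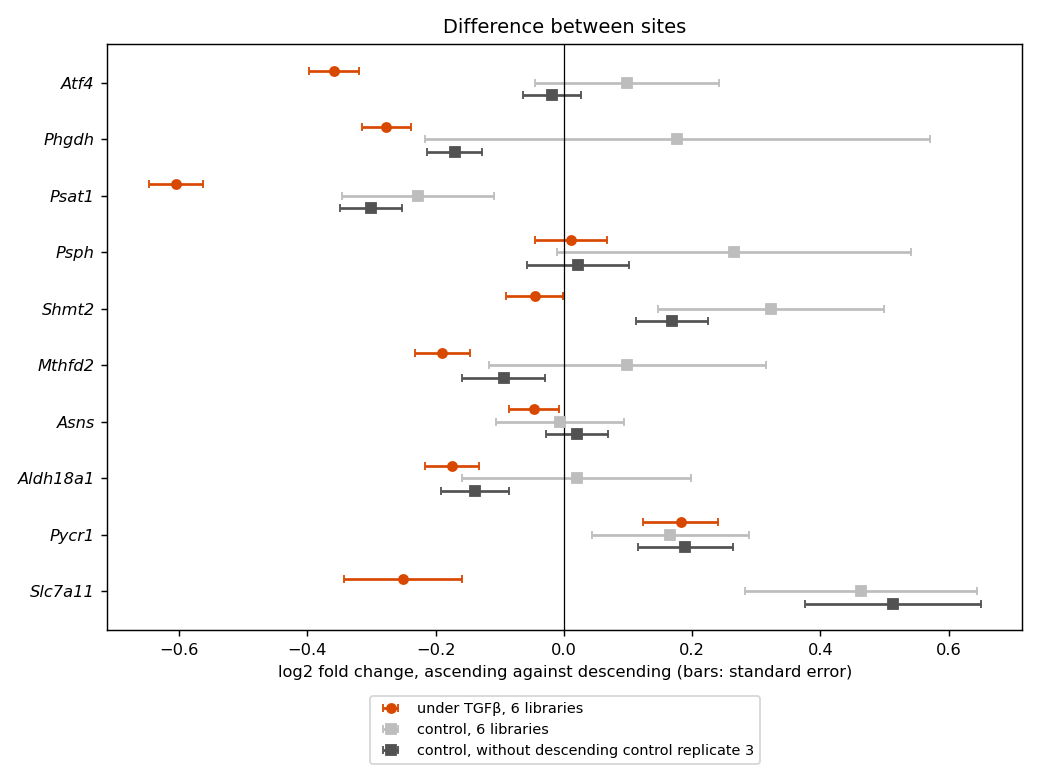
Log2 fold change between sites (horizontal axis; positive values are higher in ascending fibroblasts; bars are standard errors) under TGFβ, in control with all 6 libraries and in control without descending control replicate 3. Under TGFβ the values run from -0.60 for *Psat1* to 0.18 for *Pycr1*.

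The change with TGFβ was then compared between the sites by the interaction of site and TGFβ, where a negative value is a smaller rise in ascending fibroblasts. With all 12 libraries, edgeR's quasi-likelihood test called 0 of the 10 genes, where 0.806% of all genes tested were called in either direction. An unadjusted p under 0.05 was held by 1464 of all 14637 genes tested. Of the 10 it was held by 3 genes: *Slc7a11* (-0.71 ± 0.18, adjusted p = 0.12), *Psat1* (-0.37 ± 0.12, adjusted p = 0.26) and *Atf4* (-0.45 ± 0.15, adjusted p = 0.28). DESeq2 called 2, *Slc7a11* and *Psat1*, where it called 2.93% of all genes, and limma with sample quality weights called all 3, where it called 13.5%. Without descending control replicate 3, edgeR called the same 3 genes, where 13.5% of all genes tested were called. The values were then -0.76 ± 0.15 for *Slc7a11* (adjusted p = 0.0010), -0.33 ± 0.06 for *Atf4* (adjusted p = 0.00016) and -0.30 ± 0.06 for *Psat1* (adjusted p = 0.0013). The other 7 genes were not called with or without that library, and most of their values moved with it. *Shmt2* went from -0.37 ± 0.19 (adjusted p = 0.55) with all libraries to -0.21 ± 0.07 (adjusted p = 0.051) without it. *Phgdh* went from -0.45 ± 0.42 to -0.10 ± 0.05, and *Mthfd2* from -0.28 ± 0.23 to -0.09 ± 0.08. *Psph* went from -0.25 (95% interval -0.89 to 0.40) to -0.00 (-0.21 to 0.20), and *Aldh18a1* from -0.19 (-0.61 to 0.23) to -0.03 (-0.17 to 0.11). *Pycr1* had 0.02 (-0.28 to 0.32) and -0.00 (-0.21 to 0.21), and *Asns* had -0.04 (-0.24 to 0.16) and -0.06 (-0.18 to 0.06). The median over the 10 genes was -0.32 with all libraries, against -0.06 over all genes tested, and -0.09 against 0.01 without descending control replicate 3.

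The other genes of the same pathways were described from fixed lists, whose counts stand beside the shares over all genes tested. These were 28.2% higher and 27.6% lower with TGFβ in ascending fibroblasts, 3.59% and 4.48% in descending ones, and 26.6% and 26.3% in descending ones without descending control replicate 3. The median log2 fold change over all genes was -0.00, 0.02 and -0.01 in that order. For each list below the medians are given in the same order. Of 18 other folate and glycine genes, 9 rose and 4 fell with TGFβ in ascending fibroblasts. In descending fibroblasts 2 rose and 1 fell, and 9 rose and 3 fell without descending control replicate 3. The medians were 0.36, 0.35 and 0.22. *Aldh1l2*, which encodes the mitochondrial 10-formyltetrahydrofolate dehydrogenase, went from 29.8 ± 1.24 to 95.2 ± 2.64 normalized CPM in ascending fibroblasts (SD, n = 3), with a log2 fold change of 1.67 ± 0.05. It rose by 1.80 ± 0.12 in descending fibroblasts, from 34.8 ± 1.90 to 122 ± 8.74 (n = 3), and by 1.84 ± 0.07 without descending control replicate 3. Of its 50-base sequences 13.6% are shared, mostly with *D10Wsu102e*. Its cytosolic counterpart *Aldh1l1* fell in both, with -1.84 ± 0.22 and -1.77 ± 0.26 (-1.90 ± 0.18 without that library), on low levels of 5.24 ± 0.456 and 7.21 ± 1.31 normalized CPM in control (n = 3).

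The same split between compartments was looked at for the paralogs of *Shmt2* and *Mthfd2*. Cytosolic *Shmt1* stood at 5.90 ± 0.748 normalized CPM in ascending control and 4.33 ± 0.736 under TGFβ (n = 3), and fell by 0.45 on the log2 scale (SE 0.17, adjusted p = 0.034). In descending fibroblasts its change did not pass, at 0.29 with all libraries and -0.28 without descending control replicate 3. *Mthfd2l*, the close relative of *Mthfd2*, did not pass in either site (0.29 ± 0.14 in ascending, -0.25 ± 0.34 in descending and 0.22 ± 0.11 in the latter without that library). Mitochondrial *Mthfd1l* (0.62 ± 0.06) and cytosolic *Mthfd1* (0.65 ± 0.05) rose in ascending fibroblasts. In descending fibroblasts their values were 0.32 ± 0.20 and 0.85 ± 0.20 with all libraries, and they passed only without descending control replicate 3 (0.54 ± 0.08 and 0.67 ± 0.07). The mitochondrial folate carrier gene *Slc25a32* rose by 0.94 ± 0.07 in ascending and 1.03 ± 0.19 in descending fibroblasts (0.88 ± 0.09 without that library).

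Of 12 other proline, glutamate and ornithine genes, 11 were tested. In ascending fibroblasts 4 rose and 3 fell. In descending fibroblasts 0 rose and 1 fell, and 5 rose and 4 fell without descending control replicate 3. The medians were -0.05, 0.34 and -0.06. *Pycrl*, a reductase gene related to *Pycr1*, did not pass in ascending fibroblasts (0.22 ± 0.09, adjusted p = 0.059). In descending fibroblasts its value was 0.75 ± 0.34 with all libraries, and it passed only without descending control replicate 3 (0.46 ± 0.10). *Prodh*, the gene of proline breakdown, was low (1.79 ± 0.531 normalized CPM in ascending control, n = 3) and did not pass in either site. *Oat*, which links ornithine to proline, did not pass with all libraries (-0.05 ± 0.04 and 0.03 ± 0.18) and fell by 0.14 on the log2 scale in descending fibroblasts without descending control replicate 3.

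Of 21 other genes of ATF4 and the stress response, 11 rose and 7 fell with TGFβ in ascending fibroblasts. In descending fibroblasts 3 rose and 1 fell, and 10 rose and 5 fell without descending control replicate 3. The medians were 0.18, 0.37 and 0.32. *Trib3*, a pseudokinase gene induced by ATF4, went from 15.7 ± 1.91 to 30.3 ± 2.71 normalized CPM in ascending fibroblasts (n = 3), a change of 0.95 ± 0.09. *Chac1*, which encodes a glutathione-degrading enzyme, rose by 0.99 ± 0.09. In descending fibroblasts their values were 2.45 ± 1.19 and 2.24 ± 1.14 with all libraries, and both passed only without descending control replicate 3, at 1.89 ± 0.10 and 1.68 ± 0.13. *Ddit3* (CHOP), a stress response transcription factor gene, rose by 0.18 ± 0.06 in ascending fibroblasts (adjusted p = 0.017). In descending ones it did not pass with all libraries (0.37 ± 0.14, adjusted p = 0.18) and did without that library (0.48 ± 0.07). *Atf3* fell in ascending fibroblasts (-1.19 ± 0.21), from 5.74 ± 1.65 to 2.51 ± 0.250 normalized CPM (n = 3), and did not pass in descending ones with or without that library (0.22 ± 0.29 and 0.37 ± 0.21). *Atf5* (-0.24 ± 0.03) and *Sesn2* (-0.12 ± 0.05, adjusted p = 0.049) were also lower in ascending fibroblasts. In descending ones *Atf5* stood at 0.03 ± 0.20 and *Sesn2* at 0.32 ± 0.40 with all libraries, where neither passed, and without descending control replicate 3 *Atf5* was called lower (-0.15 ± 0.05) and *Sesn2* was not called (-0.02 ± 0.07). At the far ends of the list, *Nupr1*, a stress-induced chromatin protein gene, rose by 1.97 ± 0.05 in ascending and 2.09 ± 0.35 in descending fibroblasts (2.58 ± 0.06 without that library). *Cth*, whose enzyme makes cysteine, rose by 0.79 ± 0.14 and 1.99 ± 0.35 (1.70 ± 0.14 without it). *Vldlr*, a lipoprotein receptor gene, fell, with -1.82 ± 0.05 and -0.67 ± 0.15 (-0.79 ± 0.06 without it).

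Amino acid transport and tRNA charging were described next. Of 13 other amino acid transporter genes, 9 rose and 2 fell in ascending fibroblasts, and 4 rose and 0 fell in descending ones (9 and 2 without descending control replicate 3). The medians were 0.54, 0.79 and 0.57. *Slc7a5*, the large neutral amino acid transporter gene, rose from 104 ± 3.57 to 201 ± 8.08 normalized CPM (n = 3) in ascending fibroblasts (0.95 ± 0.04) and by 1.53 ± 0.22 in descending ones (1.33 ± 0.06 without that library). *Slc1a4*, which encodes a carrier of alanine, serine and cysteine, rose by 1.02 ± 0.05 and 1.14 ± 0.11 (1.14 ± 0.06 without it). *Slc3a2*, the heavy chain shared by the transporters of *Slc7a5* and *Slc7a11*, rose by 0.53 ± 0.04 in ascending fibroblasts, and in descending ones passed only without descending control replicate 3 (0.72 ± 0.05, against 0.94 ± 0.24 with it). The glutamine carrier gene *Slc38a2* rose by 0.54 ± 0.04 in ascending fibroblasts. In descending ones it did not pass with all libraries (0.53 ± 0.28, adjusted p = 0.31) and did without that library (0.28 ± 0.05). Of 20 tRNA synthetase genes, 19 rose and 0 fell in ascending fibroblasts, 5 rose in descending ones, and 18 rose there without descending control replicate 3. The medians were 0.45, 0.58 and 0.50. *Gars*, the glycine enzyme's gene, rose by 0.69 ± 0.03 and 0.83 ± 0.14 (0.72 ± 0.05 without that library). *Nars*, that of asparagine, rose by 0.50 ± 0.03 in ascending fibroblasts, and in descending ones passed only without that library (0.61 ± 0.05, against 0.51 ± 0.12 with it).

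Of 13 ER chaperone genes, 12 rose and 0 fell in ascending fibroblasts. In descending ones 3 rose, and 12 without descending control replicate 3. The medians were 0.40, 0.33 and 0.48. *Hspa5* (BiP) rose by 0.56 ± 0.03 in ascending fibroblasts and passed in descending ones at 0.56 ± 0.12 (adjusted p = 0.0498), and at 0.67 ± 0.05 without that library. *Hsp90b1* rose by 0.47 ± 0.03 in ascending fibroblasts, and in descending ones went from -0.05 ± 0.38 with all libraries to 0.53 ± 0.05 without descending control replicate 3. Of its 50-base sequences 9.75% are shared with other genes, mostly with *1810014B01Rik*. Of 7 fibrillar collagen genes, 5 rose and 2 fell in ascending fibroblasts. In descending ones 4 rose, and 5 rose and 2 fell without that library. The medians were 0.49, 0.86 and 0.70. *Col1a1* rose from 5510 ± 116 to 10849 ± 115 normalized CPM in ascending fibroblasts (n = 3; 0.97 ± 0.02) and by 1.11 ± 0.11 in descending ones (1.19 ± 0.05 without that library). *Col1a2* rose by 0.49 ± 0.02 and 0.86 ± 0.17 (0.70 ± 0.05 without it). *Col3a1* fell from 4876 ± 232 to 2452 ± 97.7 in ascending fibroblasts (-0.997 ± 0.0342), and in descending ones did not pass (-0.08 ± 0.19) unless descending control replicate 3 was left out (-0.26 ± 0.05).

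**Figure D4:**
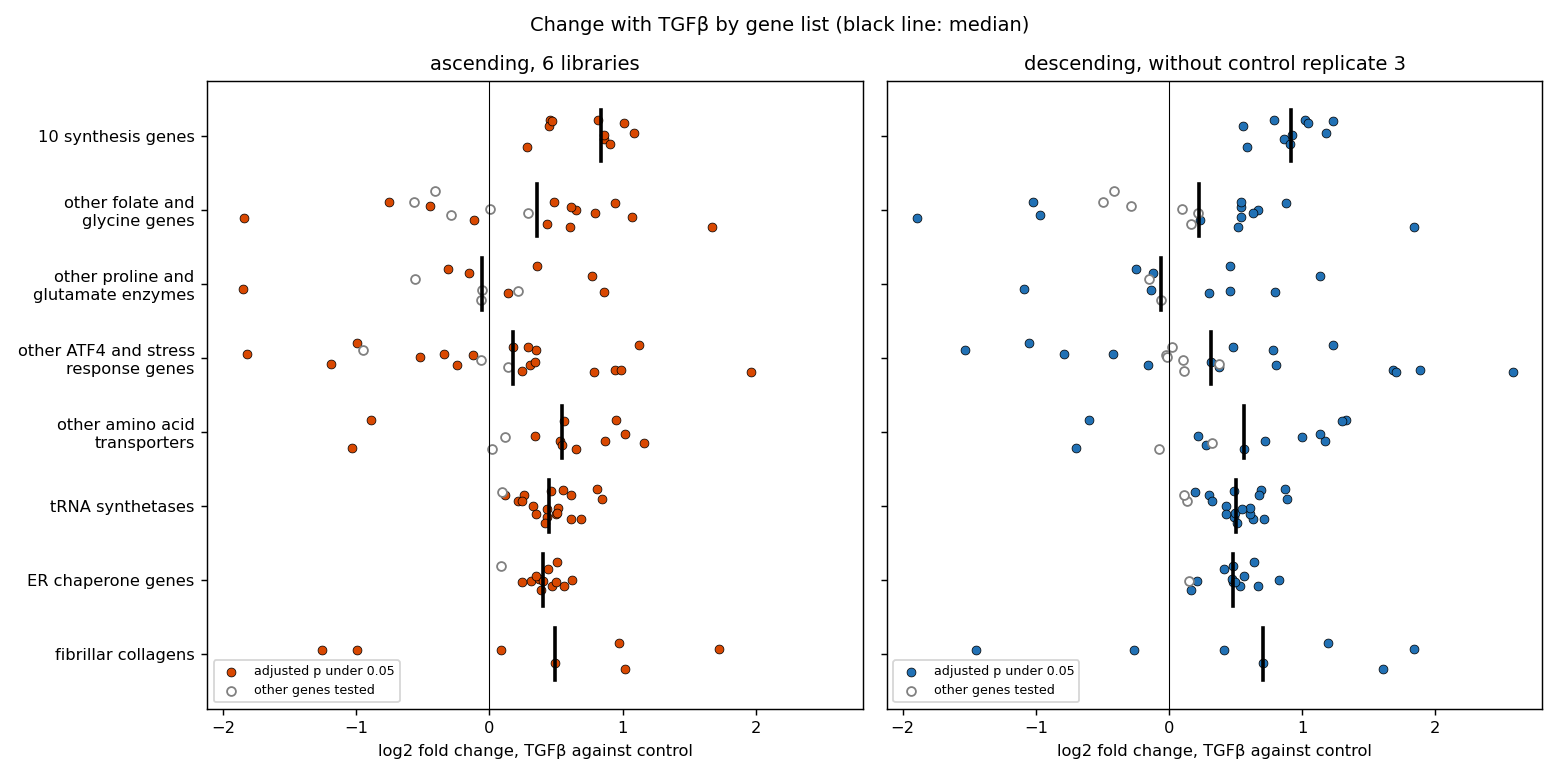
Log2 fold change with TGFβ against control (horizontal axis, the same range in both panels) of the genes of each list, in ascending fibroblasts (left) and in descending fibroblasts without control replicate 3 (right). Filled points have an adjusted p under 0.05 and black lines are medians, which for the 10 synthesis genes are 0.84 and 0.92.

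The lists were also set beside each other under TGFβ, between the sites, where 18.1% of all genes tested were higher and 18.2% lower in ascending fibroblasts. Of the folate and glycine genes 5 were higher and 2 lower in ascending fibroblasts, with *Mthfd1* (0.43 ± 0.05) and *Mthfd1l* (0.23 ± 0.06) higher and *Aldh1l2* lower (-0.35 ± 0.05). Of the 11 proline, glutamate and ornithine genes 1 was higher and 4 lower, *Pycrl* (-0.27 ± 0.09) and *Oat* (-0.12 ± 0.04) among the latter. Of the transporter genes 1 was higher and 9 lower, among them *Slc1a4* (-0.36 ± 0.05), *Slc3a2* (-0.20 ± 0.04) and *Slc7a5* (-0.15 ± 0.04). Of the 20 stress response genes tested 1 was higher and 10 lower, among them *Trib3* (-0.56 ± 0.08), *Ddit3* (-0.47 ± 0.06) and *Sesn2* (-0.40 ± 0.06), and *Cth* differed most of those named (-0.89 ± 0.11). *Chac1* did not pass (-0.20 ± 0.09, adjusted p = 0.10). The tRNA synthetase genes were 2 higher and 2 lower of 20, and the ER chaperone genes 1 higher and 5 lower of 13. The fibrillar collagen genes were 2 higher and 5 lower of 7. *Col1a1* (-0.33 ± 0.04) and *Col1a2* (-0.39 ± 0.03) were lower in ascending fibroblasts and *Col3a1* was higher (0.58 ± 0.04).

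The genes with a pattern most like that of the set were found from the group medians of log2 normalized CPM (prior count 2), centred per gene, as the root mean square difference from the median profile of the 10 genes over the 4 groups. The 5 nearest were *Hyou1* (0.022), an ER chaperone gene, *Synj2* (0.025), *Nop56* (0.028), a gene of ribosomal RNA processing, *Fpgs* (0.036), whose enzyme adds glutamates to folate, and *Abcb10* (0.038). The members' own distances ran from 0.041 for *Shmt2* to 0.33 for *Psat1*. This likeness rests on 4 points and is a description.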

How the data were processed

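Bulk RNA of 12 cultures of mouse adventitial fibroblasts was measured, 3 per group, with groups taken from the labels. The authors deposited raw read counts per gene symbol for each library, without normalization. The submitters' processing notes name FastQC, STAR, featureCounts, DESeq2 and mm10, and versions, strand setting and the treatment of reads matching several genes are not given in the sources used here. No column of the count table was left unused. Annotation was GENCODE vM21 (GRCm38), in which 53753 of the 54352 symbols and all 10 genes were found, and promoter sequences came from RefSeq (GRCm38.p6).

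Counts were tested in R 4.3.3 with edgeR 4.0.16 (TMM, filterByExpr defaults, which are a count of 10 and a total of 15, two-sided quasi-likelihood F-test). Each pair of groups was fitted on its own libraries and the interaction on all 12. P-values were adjusted over all genes tested by Benjamini-Hochberg, and an adjusted p under 0.05 was called. A standard error is the log2 fold change divided by the square root of F, and a 95% interval takes the t quantile at the degrees of freedom of that test. Levels at or under 3 counts were taken as the floor of a library (0.117 to 0.207 normalized CPM), which covers counting error only. Alternatives were DESeq2 1.42.0, limma 3.58.1 with sample quality weights, DESeq2 size factors in edgeR, no filter, at least 10 counts in every library, a replicate block, 12 libraries in one fit, and leaving out one library at a time. A 50-base sequence of a transcript counted as shared when a transcript of another gene held it on either strand. Python 3.11.15 was used for tables and plots.

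On simulated counts of 15373 genes with 200 changed 2-fold, edgeR recovered at least 96.5% in each of the 5 comparisons with at most 4.78% false calls, DESeq2 at least 90.5% with at most 10.9%, and limma at least 93.5% with at most 10.0%. The simulated libraries shared their gene means, apart from the changed genes, and a single fixed dispersion. None stood apart as descending control replicate 3 does, so these rates do not carry over to the comparisons that use that library. The members and lists were chosen with earlier results of these data known. All members were described in full, and of each list genes fixed by name (some are not reported here), for the tRNA synthetases the 2 with the most counts, and the 5 genes most like the set. *Aldh1l1*, *Slc25a32*, *Nupr1*, *Cth* and *Vldlr* were named after their values were seen.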

Additional observations from a re-analysis of the deposited data

How the results depend on the processing

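In ascending fibroblasts all 10 genes were called with TGFβ under every alternative except 12 libraries in one fit, where 9 were, *Phgdh* being lost (8.07% of all genes tested were higher there). In descending fibroblasts the count of 8 went to 0 with the replicate block, where 0.311% of all genes were higher. When single libraries were left out it went to between 0 and 10, with 0.732% to 26.6% of all genes higher. Between sites in control, where 0 were called, 12 libraries in one fit called 1 (10.6% of all genes) and limma with sample quality weights 4 (31.2%). Leaving out single libraries gave 0 to 4 there, with 0.226% to 31.6% of all genes called. Under TGFβ the 7 called fell to 1 with 12 libraries in one fit (7.56% of all genes). They came to between 5 and 7 when single libraries were left out, with 31.0% to 33.3% of all genes called. For the interaction, with 0 called, DESeq2 called 2 (2.93% of all genes) and limma 3 (13.5%). Leaving out single libraries gave 0 to 3 there, with 0.166% to 13.5% of all genes called. The replicate block left the other 4 counts as they were. Counts of the other gene lists were taken as moved when they changed beyond a set ratio, or to or from 0. Across lists and alternatives 63 moved and 28 did not in descending fibroblasts, and 6 moved and 85 did not in ascending ones. The deviations of cultures of the same number from their group means had correlations of -0.03 to 0.09, and the numbers were not taken as pairs. Correlations this low cannot show whether cultures shared an animal, and the replicate block did take the descending count to 0. The cause of these shifts was not tested.

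Directions turned as follows. Between sites in control, limma gave -0.014 for *Atf4*, -0.17 for *Phgdh*, -0.10 for *Mthfd2*, 0.020 for *Asns* and -0.15 for *Aldh18a1*, and no filter gave 0.0031 for *Asns*. With single libraries left out these ran from -0.018 to 0.18, -0.17 to 0.41, -0.094 to 0.25, -0.017 to 0.020 and -0.14 to 0.12. *Psph* ran from -0.015 to 0.055 between sites under TGFβ, and its interaction was 0.011 in limma. The *Pycr1* interaction ran from -0.041 to 0.072. With TGFβ in descending fibroblasts, limma gave -0.28 for *Shmt1*, 0.21 for *Mthfd2l*, -0.24 for *Prodh*, -0.14 for *Oat*, -0.14 for *Atf5*, -0.043 for *Sesn2* and 0.52 for *Hsp90b1*, for which the replicate block gave 0.10. With single libraries left out these 7 ran from -0.28 to 0.81, -0.44 to 0.22, -0.15 to 0.89, -0.14 to 0.13, -0.15 to 0.18, -0.025 to 0.57 and -0.27 to 0.53, and *Col3a1* from -0.26 to 0.024.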
